A study of Mus musculus with 12 samples.

Results

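The genes of the leukocyte integrins and of 2 adhesion ligands on the cell surface were followed in mouse bone marrow-derived macrophages (BMDMs). They were the β2 chain Itgb2 with its α partners Itgam, Itgal and Itgax, the β1 chain Itgb1 with its α partners Itga4, Itga5 and Itgav, and the ligands Icam1 and Vcam1. These 10 genes were taken by symbol from a table of 55335 rows, in which 11 rows carry their symbols because Itgam is listed under 2 identifiers. All 11 rows were among the 12622 that were kept because 3 or more of the 12 libraries reached 1 FPKM. FPKM counts fragments relative to the length of the transcript and to the size of the library, so levels of different genes can be set side by side. Each of the 10 genes was at 3.16 FPKM or more in every library, so none of them passed the filter through a single group.

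Integrins are receptors made of an α and a β chain, and neither chain reaches the cell surface alone. The β2 integrins are found on leukocytes. LFA-1 (Itgal with Itgb2) and Mac-1 (Itgam with Itgb2) bind ICAM-1, and Mac-1 also binds fibrinogen and complement fragments on opsonised particles. The β1 chain has many partners, among them α4 (Itga4), which binds VCAM-1 and fibronectin, and α5 (Itga5), the classical fibronectin receptor. In macrophages these receptors serve adhesion, migration and phagocytosis.

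The 12 libraries fell into 4 groups of 3: wild-type control, wild-type with LPS+ATP, Nlrp3-/- control and Nlrp3-/- with LPS+ATP. BMDMs are macrophages grown from bone marrow in culture, here from C57BL/6 mice aged 8 weeks and for 7 days with macrophage colony-stimulating factor (40 ng/ml), in all 4 groups alike. Lipopolysaccharide (LPS) primes the NLRP3 inflammasome, the caspase-1 activating complex that matures IL-1β, and extracellular ATP then triggers it. The labels give LPS for 4 hours and then ATP for 30 minutes, whereas the culture methods of the study give 12 hours and 2 hours. The Nlrp3-/- mice and the wild-type mice came from different suppliers, and the number of mice behind each library was not given, so p-values measure only the spread between these libraries, which may be technical.

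Nlrp3 was between 9.24 and 33.6 FPKM in the 6 wild-type libraries and was listed at 0 in the 6 Nlrp3-/- libraries. All 7 macrophage markers were present in every group. Lyz2 had a mean of 9309 FPKM or more, and Csf1r, the receptor for the growth factor in the medium, of 164 FPKM or more. Mertk, the lowest of them, had a mean of 16.7 FPKM or more. The stimulation was visible in all 7 genes of a list of LPS targets, whose median log2 fold change was 6.08 in wild-type and 5.08 in Nlrp3-/- BMDMs. Xist was 32.8 FPKM or more in each Nlrp3-/- library and at most 0.0416 FPKM in the wild-type libraries, while 4 Y-linked genes were at 0 in the Nlrp3-/- libraries and at 0.903 FPKM or more in the wild-type libraries. Hence genotype, sex and source of the mice cannot be told apart in any genotype comparison here. In bulk RNA, a change in the number of cells of a type and a change in the RNA per cell cannot be told apart either.

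**Figure D1:**
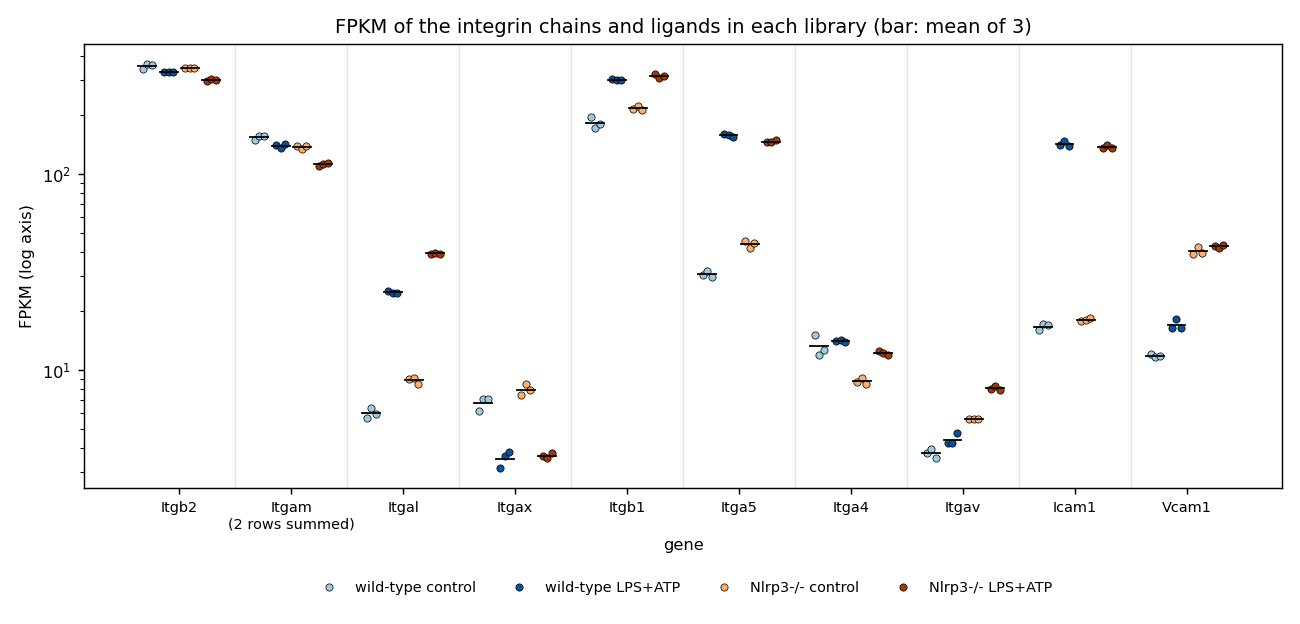
FPKM (log axis) of the 10 genes in each of the 12 libraries, with points for libraries, bars for group means and colours for the 4 groups. Icam1, Itga5 and Itgal lie far higher in both groups with LPS+ATP, Vcam1 lies higher in both Nlrp3-/- groups, and Itgb2 stays between 297 and 363 FPKM throughout.

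In control BMDMs of both genotypes the 3 highest members were Itgb2, Itgb1 and Itgam. In wild-type control BMDMs they had mean levels of 355, 182 and 154 FPKM (Itgam as the sum of its 2 rows), and Itga5 followed at 30.8 FPKM. Icam1 (16.6 FPKM), Itga4 (13.2), Vcam1 (11.8), Itgax (6.81), Itgal (6.01) and Itgav (3.75) came next. The libraries of Itga4 and Vcam1 overlapped in this order, as did those of Itgax and Itgal, and all other neighbours were apart in every library. With LPS+ATP, Itga5 (158 FPKM for wild-type, 146 FPKM for Nlrp3-/-) and Icam1 (142 and 138 FPKM) stood beside Itgam (139 and 112 FPKM), and Itgax (3.53 and 3.64 FPKM) was the lowest member in both genotypes. In Nlrp3-/- BMDMs with LPS+ATP, Itgb1 (315 FPKM) was above Itgb2 (300.0 FPKM) in every library, the only group of the 4 with that order. In Nlrp3-/- control BMDMs, Vcam1 had the fifth highest level (40.3 FPKM) and its libraries overlapped those of Itga5 (43.9 FPKM), as those of Itgal (8.87 FPKM) overlapped those of Itga4 (8.75 FPKM).

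The first comparison asks what LPS+ATP changed in each genotype. A gene is called changed at a Benjamini-Hochberg adjusted p under 0.05 in limma on log2(FPKM + 1), and a differentially expressed gene (DEG) if its log2 fold change was also at least 1 in either direction. In both genotypes the ligand Icam1 and the α chains Itga5 and Itgal were strongly up-regulated, Itgb1 and Itgav were moderately up-regulated, and Itgax fell. Counting Itgam as 1 gene, 6 of the 10 members rose and 3 fell in wild-type BMDMs, and 6 rose and 3 fell in Nlrp3-/- BMDMs. Of all rows tested, 23.3% rose and 53.1% fell in wild-type, and 20.6% rose and 53.8% fell in Nlrp3-/- BMDMs. The 3 members that were DEGs in wild-type BMDMs were DEGs in Nlrp3-/- BMDMs too, all of them up, against a background of 8.25% (up) and 11.2% (down) of all rows in wild-type and of 6.64% (up) and 8.21% (down) in Nlrp3-/- BMDMs. The median log2 fold change over the 10 members was 0.34 in wild-type and 0.44 in Nlrp3-/- BMDMs, beside -0.25 and -0.24 over all rows tested. The table is not stated to be scaled between libraries. Median-ratio scaling changed the split of all changed rows from 2940 up and 6701 down to 4468 and 4506 in wild-type, and from 2594 and 6789 to 4114 and 4164 in Nlrp3-/- BMDMs, and that of the members to 9 up and 1 down and to 8 up and 1 down. Itgb1 then reached the DEG limit in wild-type BMDMs (1.06).

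Icam1 (ENSMUSG00000037405), which encodes the immunoglobulin-family ligand of LFA-1 and Mac-1 and is a textbook target of LPS signalling, made the largest step of the members. In wild-type control libraries it was 15.9, 17.1 and 16.9 FPKM, and with LPS+ATP 141, 147 and 139 FPKM. Nlrp3-/- libraries went from 17.7, 18.1 and 18.4 FPKM to 136, 141 and 136 FPKM. The groups with and without LPS+ATP did not overlap, and the ratio of means was 8.55 in wild-type and 7.62 in Nlrp3-/- BMDMs. On the log2 scale the changes were 3.02 ± 0.04 (SE, limma adjusted p = 2.93e-14) and 2.86 ± 0.04 (limma adjusted p = 5.58e-14). GENCODE places Icam1 on chromosome 9 of GRCm38, from 21015985 to 21028817 on the plus strand, where 11.7% of its exonic bases lie opposite the antisense gene Gm47079. Whether reads were counted by strand is not given in the sources used here, so reads of these 2 genes may not be fully separated.

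Itga5 (ENSMUSG00000000555), the α chain of the fibronectin receptor, lies on chromosome 15 from 103344286 to 103366763 on the minus strand. It was 30.6, 32.0 and 29.9 FPKM in wild-type control libraries and 159, 159 and 155 FPKM with LPS+ATP. The Nlrp3-/- control libraries were at 45.3, 42.1 and 44.2 FPKM and the stimulated ones at 145, 146 and 148 FPKM. Stimulated libraries of both genotypes lay far above the controls, by a ratio of means of 5.12 in wild-type and 3.33 in Nlrp3-/- BMDMs. The log2 fold changes were 2.32 ± 0.03 (SE, limma adjusted p = 1.96e-13) and 1.71 ± 0.03 (limma adjusted p = 2.88e-12).

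Itgal (ENSMUSG00000030830), the α chain of LFA-1, lies on chromosome 7 from 127296260 to 127335138 on the plus strand. It was 5.67, 6.43 and 5.95 FPKM in wild-type control libraries and 25.3, 24.8 and 24.7 FPKM with LPS+ATP. The Nlrp3-/- libraries went from 8.95, 9.15 and 8.52 FPKM to 39.2, 39.7 and 39.1 FPKM. The 4 groups were fully separate, with Nlrp3-/- above wild-type in either state. The log2 fold change was 1.89 ± 0.04 (SE, limma adjusted p = 6.46e-12) in wild-type and 2.03 ± 0.04 (limma adjusted p = 4.51e-12) in Nlrp3-/- BMDMs. Lymphocytes also carry LFA-1. The summed level of 10 lymphocyte markers was between 1.61 and 1.90 FPKM in wild-type control and between 0.81 and 1.27 FPKM in wild-type stimulated libraries, and between 4.85 and 6.13 FPKM and between 2.34 and 2.70 FPKM in Nlrp3-/- libraries. With LPS+ATP 1 of these markers was higher and 3 were lower in wild-type, and 5 were lower in Nlrp3-/- BMDMs, with no overlap between libraries. The CD3 genes Cd3d, Cd3e and Cd3g were at a mean of 0.0268 FPKM or less in every group. The part of lymphocytes in the levels of Itgal was not tested.

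Itgax (ENSMUSG00000030789), the CD11c chain that is widely used as a marker of dendritic cells and of some tissue macrophages, lies on chromosome 7 from 128129547 to 128150657 on the plus strand. It went the other way. Its libraries were at 6.17, 7.11 and 7.14 FPKM in wild-type control and at 3.16, 3.63 and 3.80 FPKM in wild-type stimulated BMDMs. For Nlrp3-/- BMDMs the values were 7.44, 8.45 and 7.88 FPKM without and 3.63, 3.54 and 3.76 FPKM with LPS+ATP. Controls and stimulated libraries did not overlap, and stimulated libraries of both genotypes shared 1 range. The log2 fold change was -0.79 ± 0.07 (SE, limma adjusted p = 1.10e-06) in wild-type and -0.94 ± 0.07 (limma adjusted p = 2.86e-07) in Nlrp3-/- BMDMs, short of the DEG limit in both. In Nlrp3-/- BMDMs it reached that limit with a pseudocount of 0.1 (-1.10) and with TPM (-1.0004). The 8 dendritic cell markers summed to between 0.894 and 1.41 FPKM in wild-type control and to between 2.55 and 3.91 FPKM in wild-type stimulated libraries, and to between 2.63 and 3.42 FPKM and between 4.96 and 5.74 FPKM in Nlrp3-/- libraries. In wild-type BMDMs 3 of them lay above and 3 below every control library with LPS+ATP, and in Nlrp3-/- BMDMs 4 and 2 did so. Ccr7 alone, singled out after its values were seen, went from 0.566 to 2.30 FPKM and from 1.89 to 4.54 FPKM. Their part in the fall of Itgax was not tested.

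The promoters of Icam1, Itga5 and Itgax are shown because on the unscaled FPKM these members moved most with LPS+ATP among those with an entry in the RefSeq promoter table, which holds 7 of the 10 genes. Under median-ratio scaling Itgb1 moved more than Itgax. Each is the 250 bases before the RefSeq start of the gene in GRCm38.p6, which differs by some bases from the GENCODE start given above. They are written 5′ to 3′ on the strand of the gene, with the letters found by the search in capitals. They span chr9:21015690-21015939 (plus strand), chr15:103366792-103367041 (minus strand) and chr7:128129300-128129549 (plus strand).
Icam1: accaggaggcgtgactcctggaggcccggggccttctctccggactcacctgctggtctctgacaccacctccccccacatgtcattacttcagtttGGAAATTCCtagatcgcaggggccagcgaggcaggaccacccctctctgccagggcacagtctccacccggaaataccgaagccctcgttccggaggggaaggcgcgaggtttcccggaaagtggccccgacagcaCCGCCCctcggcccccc
Itga5: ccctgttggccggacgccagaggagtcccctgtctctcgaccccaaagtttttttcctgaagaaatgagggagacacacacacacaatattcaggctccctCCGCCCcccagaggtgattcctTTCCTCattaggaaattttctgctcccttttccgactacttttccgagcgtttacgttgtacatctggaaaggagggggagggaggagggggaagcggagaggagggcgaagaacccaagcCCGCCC
Itgax: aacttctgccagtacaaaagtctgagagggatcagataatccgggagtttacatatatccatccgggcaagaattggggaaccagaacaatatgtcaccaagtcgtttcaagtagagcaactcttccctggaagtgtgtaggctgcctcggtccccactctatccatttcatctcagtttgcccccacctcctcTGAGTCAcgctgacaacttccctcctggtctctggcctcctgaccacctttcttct

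Both strands were searched for the nuclear factor κB consensus, for a 9-letter form of it (GGAANTTCC, spelled out after the Icam1 sequence had been seen), for AP-1 (TGANTCA), for an Ets core (GAGGAA) and for a GC box (GGGCGG). In Icam1 the capitals mark GGAAATTCC at positions -153 to -145 from the start and a GC box at -17 to -12. In Itga5 they mark 2 GC boxes, at -149 to -144 and -6 to -1, and an Ets core at -127 to -122, all on the strand opposite to the gene. In Itgax they mark TGAGTCA at -56 to -50. Of 32851 promoters of the same length, 0.8128% held the 9-letter form, 7.251% the full κB consensus, 6.749% the AP-1 letters, 23.25% the Ets core and 32.74% the GC box. The full κB consensus was found in none of the 7 members. Among them the 9-letter form was found in Icam1 alone and the AP-1 letters in Itgax alone. As the 9-letter form was spelled out after the Icam1 sequence had been seen, its match there is no test. These are matches of letters, and no binding was measured.

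Among the more moderate changes, Itgb1 (ENSMUSG00000025809), the common β1 chain, rose from 195, 172 and 179 FPKM to 306, 300 and 301 FPKM in wild-type BMDMs. It also rose in Nlrp3-/- BMDMs, from 215, 223 and 212 FPKM to 323, 308 and 314 FPKM. Stimulated libraries exceeded all controls of their genotype. The log2 fold change was 0.73 ± 0.04 (SE, limma adjusted p = 2.07e-08) in wild-type and 0.54 ± 0.04 (limma adjusted p = 3.94e-07) in Nlrp3-/- BMDMs.

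Itgav (ENSMUSG00000027087), the αv chain that also pairs with several other β chains, was the lowest of the members in control BMDMs. It was 3.77, 3.95 and 3.54 FPKM in wild-type control libraries and 4.24, 4.22 and 4.75 FPKM with LPS+ATP, a rise of 0.18 ± 0.05 on the log2 scale (SE, limma adjusted p = 0.00592). In Nlrp3-/- BMDMs it was 5.60, 5.62 and 5.65 FPKM and then 7.96, 8.29 and 7.91 FPKM, a rise of 0.45 ± 0.05 (SE, limma adjusted p = 9.09e-06). All 4 groups were separate, and the 2 Nlrp3-/- groups were the higher ones.

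Itga4 (ENSMUSG00000027009), the α chain that binds VCAM-1, was 15.02, 11.9 and 12.6 FPKM in wild-type control libraries and 14.1, 14.2 and 13.9 FPKM with LPS+ATP. These groups overlapped, because replicate 1 of the controls lay above the stimulated libraries. The log2 difference of 0.09 did not pass (95% CI -0.06 to 0.24, limma adjusted p = 0.231), and without that replicate it was 0.18 (limma adjusted p = 0.00315). With median-ratio scaling it was 0.40 (adjusted p = 0.000257). Itga4 in Nlrp3-/- BMDMs went from 8.65, 9.12 and 8.48 FPKM to 12.4, 12.3 and 11.9 FPKM, with no overlap and a log2 fold change of 0.43 ± 0.07 (SE, limma adjusted p = 0.000135). Opposite strand genes overlap 8.04% of the exonic bases of Itga4 (Cerkl) and 5.90% of those of Itgav (Gm13684).

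Vcam1 (ENSMUSG00000027962), the ligand of the α4 integrins, was 12.05, 11.6 and 11.8 FPKM in wild-type control libraries and 16.3, 18.3 and 16.4 FPKM with LPS+ATP. The rise of 0.49 ± 0.05 on the log2 scale passed (SE, limma adjusted p = 1.67e-06). The Nlrp3-/- levels were 39.1, 42.2 and 39.7 FPKM without and 43.0, 42.1 and 43.4 FPKM with LPS+ATP, overlapping by 1 library. There the log2 difference was 0.09 (95% CI -0.02 to 0.19, limma adjusted p = 0.113), but it passed with TPM (0.15, adjusted p = 0.0142) and with median-ratio scaling (0.37, adjusted p = 3.93e-05).

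Itgb2 (ENSMUSG00000000290), the β chain without which no β2 integrin forms, was the highest member in every group but Nlrp3-/- with LPS+ATP. It was 344, 363 and 358 FPKM in wild-type control and 333, 330 and 330 FPKM in wild-type stimulated libraries. In Nlrp3-/- BMDMs it was 347, 347 and 347 FPKM without and 297, 303 and 300.0 FPKM with LPS+ATP. The stimulated libraries were below the controls in both genotypes, by a log2 fold change of -0.10 ± 0.02 (SE, limma adjusted p = 0.00211) and -0.21 ± 0.02 (limma adjusted p = 9.80e-06). These small falls turned with the scale: under median-ratio scaling, which moved the median log2 change of all genes from -0.25 to -0.01 in wild-type and from -0.24 to -0.01 in Nlrp3-/- BMDMs, Itgb2 was up by 0.23 and 0.083. With TPM the wild-type fall did not pass (-0.056, adjusted p = 0.0599).

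**Figure D2:**
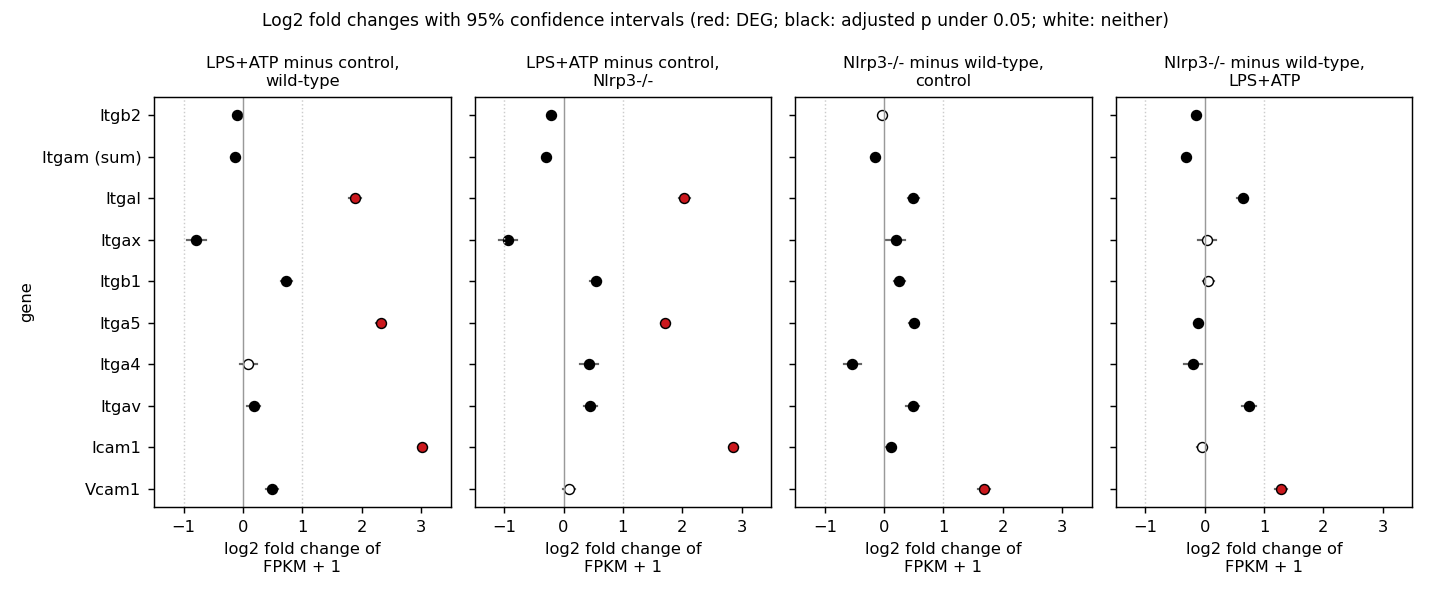
Log2 fold changes of FPKM + 1 with 95% confidence intervals (limma, 3 libraries a group) for the 10 genes in the 4 comparisons, with Itgam as the sum of its 2 rows. Red points are DEGs: Icam1, Itga5 and Itgal in both stimulation comparisons and Vcam1 in both genotype comparisons.

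Itgam, the CD11b chain of Mac-1, is split over 2 rows of the table. The row ENSMUSG00000030786 is Itgam in GENCODE M21, on chromosome 7 of GRCm38 from 128062640 to 128118491 on the plus strand. The row ENSMUSG00000108596 carries the symbol Itgam in the table but is named Gm49368 in GENCODE M21, a protein-coding gene from 128062683 to 128128160 on the same strand. Of the 5024 exonic bases of the first, 3450 (68.7%) are shared with the second. In the wild-type control libraries the first row was 37.8, 103 and 42.0 FPKM and the second 112, 53.0 and 114 FPKM, so that replicate 2 had the reverse split of replicates 1 and 3. The share of the first row in the sum ran from 23.8% to 74.5% over the 12 libraries. The sum, in contrast, was 149, 156 and 156 FPKM in these 3 libraries. The residual SD on the log2 scale was 0.693 and 0.643 for the rows and 0.0289 for the sum, beside a median of 0.0882 over all rows tested. No contrast of either row passed the test, with limma adjusted p between 0.353 and 0.940. Without replicate 2 of the Nlrp3-/- controls, the row ENSMUSG00000108596 fell with LPS+ATP in Nlrp3-/- BMDMs (-1.01, adjusted p = 0.0325).

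**Figure D3:**
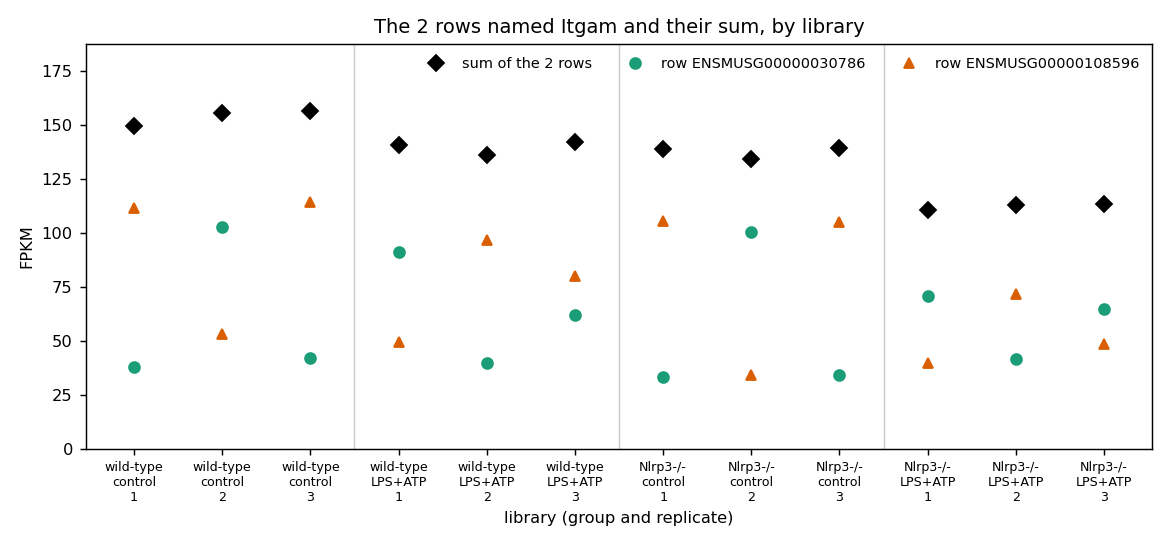
FPKM of the 2 rows named Itgam (circles and triangles) and of their sum (diamonds) in each of the 12 libraries. The rows trade places between libraries of 1 group, with shares of the first row between 23.8% and 74.5%, while the sums lie between 110 and 156 FPKM and group by condition.

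As a sum, which was chosen after these values had been seen, Itgam was 149, 156 and 156 FPKM in wild-type control and 140, 136 and 142 FPKM in wild-type stimulated libraries. The Nlrp3-/- sums were 138, 134 and 139 FPKM without and 110, 113 and 113 FPKM with LPS+ATP. Nlrp3-/- libraries with LPS+ATP were the lowest of all, and the wild-type controls the highest. With LPS+ATP the sum fell by 0.14 ± 0.03 on the log2 scale in wild-type (SE, limma adjusted p = 0.000871) and by 0.29 ± 0.03 in Nlrp3-/- BMDMs (limma adjusted p = 2.84e-06). Like those of Itgb2, these falls turned with the scale, to 0.19 in wild-type and 0.0014 in Nlrp3-/- BMDMs under median-ratio scaling. Neutrophils carry Mac-1 as well, and the 12 neutrophil and myeloid progenitor markers summed to between 610 and 634 FPKM in wild-type control and between 196 and 213 FPKM in wild-type stimulated libraries, and to between 2217 and 2253 FPKM and between 575 and 604 FPKM in Nlrp3-/- libraries. Their part in the falls of Itgam and Itgb2 was not tested.

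The second comparison asks how Nlrp3-/- BMDMs differed from wild-type BMDMs in each state. The member that stood apart was Vcam1, more than any integrin chain among the members. In control BMDMs, 7 of the 10 members were higher in Nlrp3-/- and 2 were lower, and Itgb2 did not pass, while 33.3% of all rows were higher and 14.5% lower. With LPS+ATP, 3 members were higher and 4 lower, beside 35.9% and 12.6% of all rows. Vcam1 was the single DEG among the members in both states, against 6.02% of rows as DEGs higher in Nlrp3-/- and 0.689% lower in control BMDMs, and 4.48% higher and 0.57% lower with LPS+ATP. The median log2 difference over the members was 0.22 in control BMDMs and -0.0041 with LPS+ATP, beside 0.09 and 0.11 over all rows. Median-ratio scaling moved the median of all rows to -0.03 and -0.04. It turned the split of all changed rows from 4203 higher and 1832 lower to 2587 and 3230 in control BMDMs, and from 4531 and 1593 to 2871 and 3430 with LPS+ATP, and that of the members to 4 higher and 3 lower and to 3 higher and 6 lower.

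Vcam1 lies on chromosome 3 from 116109949 to 116129688 on the minus strand. Its lowest Nlrp3-/- control library (39.1 FPKM) was above its highest wild-type library of either state (18.3 FPKM). In control BMDMs the mean was 11.8 ± 0.234 FPKM for wild-type and 40.3 ± 1.62 FPKM for Nlrp3-/- (SD, n = 3 each), a ratio of 3.41 and a log2 difference of 1.69 ± 0.05 (SE, limma adjusted p = 1.70e-10). With LPS+ATP they were 17.0 ± 1.11 FPKM and 42.8 ± 0.645 FPKM (SD, n = 3 each), a ratio of 2.52 and a log2 difference of 1.29 ± 0.05 (SE, limma adjusted p = 2.30e-09).

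Markers of fibroblasts, which can carry VCAM-1, moved the same way as Vcam1. All 8 were higher in every Nlrp3-/- library than in any wild-type library, in control BMDMs and with LPS+ATP alike. Their summed level was between 163 and 168 FPKM in wild-type control and between 1189 and 1206 FPKM in Nlrp3-/- control libraries, and between 191 and 194 FPKM and between 928 and 944 FPKM with LPS+ATP. Of the 6 endothelial markers, 5 were higher in Nlrp3-/- in both states, with sums between 4.11 and 4.97 FPKM in wild-type control and between 10.2 and 12.6 FPKM in Nlrp3-/- control libraries. All 12 markers of neutrophils and myeloid progenitors were higher in Nlrp3-/- control BMDMs (sums between 2217 and 2253 FPKM, beside 610 to 634 FPKM in wild-type), and 10 of 12 were higher with LPS+ATP. Of the 10 lymphocyte markers, 7 were higher in Nlrp3-/- control and 2 in Nlrp3-/- stimulated BMDMs. Of the 8 dendritic cell markers, 4 were higher and 1 lower in control and 3 higher and 1 lower in stimulated Nlrp3-/- BMDMs. Of the 8 megakaryocyte and erythroid markers, 6 were higher in control BMDMs, and 3 were higher and 3 lower with LPS+ATP. Of the 7 macrophage markers, 5 were lower and 1 higher in Nlrp3-/- in both states. The part of these cells in the genotype differences of the members was not tested.

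**Figure D4:**
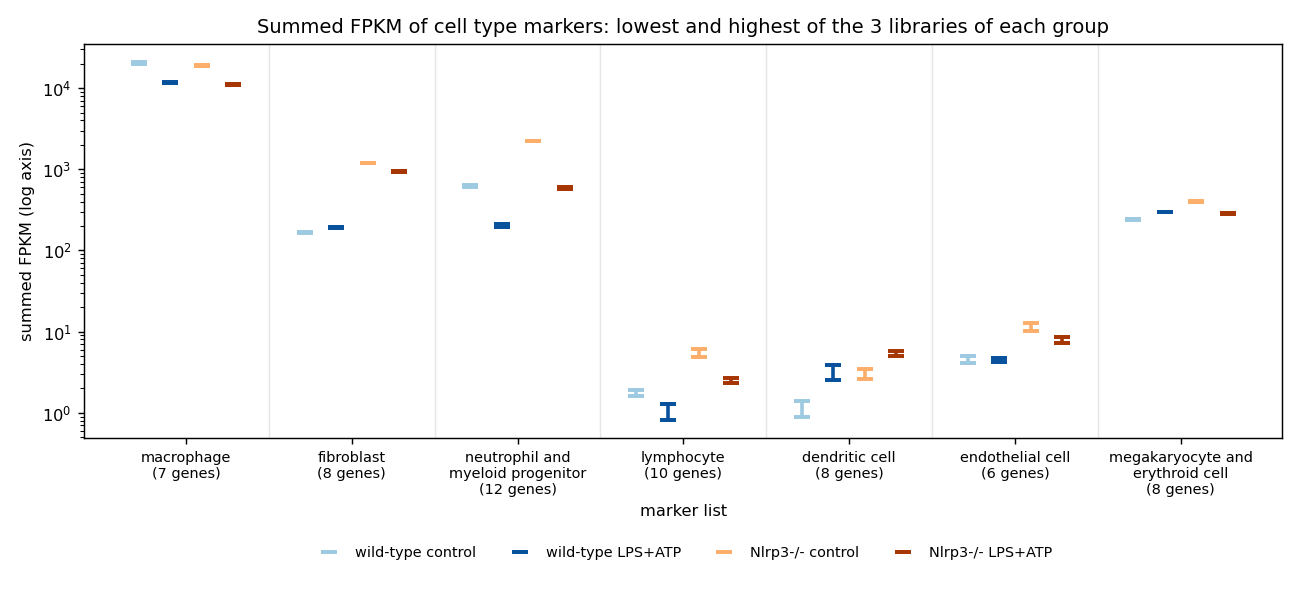
Summed FPKM (log axis) of 7 lists of cell type markers, with dashes at the lowest and the highest of the 3 libraries of each group. The fibroblast sum is between 163 and 194 FPKM in the wild-type groups and between 928 and 1206 FPKM in the Nlrp3-/- groups, and the macrophage sum is 11005 FPKM or more in every group.

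Of the α chains, Itgav and Itgal were higher in Nlrp3-/- BMDMs in both states. For Itgav the log2 difference was 0.48 ± 0.05 in control BMDMs (SE, limma adjusted p = 1.11e-05) and 0.75 ± 0.05 with LPS+ATP (limma adjusted p = 3.39e-07), with ratios of means of 1.499 and 1.83. For Itgal it was 0.49 ± 0.04 (SE, limma adjusted p = 2.23e-06) and 0.64 ± 0.04 (limma adjusted p = 3.25e-07), with ratios of 1.48 and 1.58. The genotypes did not overlap in either gene or state.

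Itga5 changed sides. In control BMDMs it was higher in Nlrp3-/- by 0.50 ± 0.03 on the log2 scale (SE, limma adjusted p = 3.24e-07), whereas with LPS+ATP it was lower, by a log2 difference of -0.11 ± 0.03 (limma adjusted p = 0.0212). The second difference was lost when replicate 1 or 2 of the wild-type or of the Nlrp3-/- stimulated libraries was left out, with limma adjusted p between 0.0574 and 0.0654, and with TPM (-0.087, adjusted p = 0.0714). Under median-ratio scaling it was larger (-0.30, limma adjusted p = 1.86e-05). Itga4 was lower in Nlrp3-/- control BMDMs by a log2 difference of -0.53 ± 0.07 (SE, limma adjusted p = 5.52e-05). With LPS+ATP its log2 difference of -0.19 ± 0.07 (limma adjusted p = 0.0366) was lost when any 1 of the 6 libraries was left out, with adjusted p between 0.0609 and 0.101, and with TPM (-0.18, adjusted p = 0.0651). Under median-ratio scaling that difference, too, was larger (-0.37, limma adjusted p = 0.000842).

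Itgb1 was higher in Nlrp3-/- control BMDMs by 0.25 ± 0.04 on the log2 scale (SE, limma adjusted p = 0.000418). With LPS+ATP the difference was 0.06 (95% CI -0.03 to 0.15, limma adjusted p = 0.265). The former lost the test (0.10, adjusted p = 0.0780) and the latter turned to -0.13 (adjusted p = 0.0238) under median-ratio scaling. Itgb2 did not differ beyond the spread in control BMDMs (log2 difference -0.03, 95% CI -0.09 to 0.02, limma adjusted p = 0.280). Without replicate 1 of the wild-type controls it was -0.056 (adjusted p = 0.0341), and with median-ratio scaling -0.19 (adjusted p = 7.15e-05). With LPS+ATP Itgb2 was lower in Nlrp3-/- by a log2 difference of -0.14 ± 0.02 (limma adjusted p = 0.000483). The summed Itgam was lower in Nlrp3-/- BMDMs in both states, with log2 differences of -0.16 ± 0.03 (limma adjusted p = 0.000628) and -0.31 ± 0.03 (limma adjusted p = 3.68e-06).

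Small genotype differences also passed for Icam1 and Itgax in control BMDMs. That of Icam1 was 0.11 ± 0.04 on the log2 scale (SE, limma adjusted p = 0.0209). It was lost without replicate 1 of the wild-type controls (adjusted p = 0.0637) and without replicate 2 (0.0518) or 3 (0.0731) of the Nlrp3-/- controls, and under median-ratio scaling it turned to -0.03. That of Itgax was 0.19 ± 0.07 (limma adjusted p = 0.0415). It was lost without the same 3 libraries (adjusted p = 0.147, 0.145 and 0.0841) and under median-ratio scaling (0.06). With LPS+ATP neither passed, with log2 differences of -0.05 for Icam1 (95% CI -0.12 to 0.03, limma adjusted p = 0.302, but -0.24 with adjusted p = 0.000269 under median-ratio scaling) and 0.04 for Itgax (95% CI -0.12 to 0.19, limma adjusted p = 0.690).

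The interaction tests whether the change with LPS+ATP differed between genotypes. It passed for 8 of the 10 members, 2 in the positive and 6 in the negative direction, where 14.7% of all rows were positive and 13% negative. No member was an interaction DEG, a class with 0.721% of rows in the positive and 1.43% in the negative direction. The largest difference was that of Itga5, whose rise was smaller in Nlrp3-/- BMDMs (log2 -0.60 ± 0.05, SE, limma adjusted p = 6.17e-06). Vcam1 followed with -0.40 ± 0.06 (limma adjusted p = 0.000882), Itga4 with 0.34 ± 0.10 (limma adjusted p = 0.0214) and Itgav with 0.27 ± 0.07 (limma adjusted p = 0.0172). The summed Itgam was at -0.15 ± 0.04 (limma adjusted p = 0.0164).

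The interaction of Itgb1 (-0.19, limma adjusted p = 0.0322), Icam1 (-0.16, adjusted p = 0.0344) and Itgb2 (-0.11, adjusted p = 0.0346) lay close to the threshold. Leaving out 1 library in turn ended the call in 9 of 12 cases for Itgb1, in 7 of 12 for Icam1 and in 8 of 12 for Itgb2, with adjusted p up to 0.0766, 0.0793 and 0.0819, and 1 library (replicate 3 of the Nlrp3-/- controls) ended that of Itga4 (0.0514). Itgax (-0.15, 95% CI -0.37 to 0.06, limma adjusted p = 0.288) and Itgal (0.14, 95% CI 0.01 to 0.28, limma adjusted p = 0.105) did not pass. Without replicate 1 of the wild-type controls, Itgal passed (0.18, adjusted p = 0.0356).

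Because α and β chains are made into heterodimers, the make-up of the transcripts that can pair was compared next, as shares of summed FPKM. Among the 4 α chains that pair with Itgb2 (Itgam, Itgal, Itgax and Itgad), Itgam held most of the signal in every group and Itgal gained with LPS+ATP. The share of Itgal was 3.51%, 3.79% and 3.499% in wild-type control and 14.95%, 15.03% and 14.5% in wild-type stimulated libraries. In Nlrp3-/- BMDMs it was 5.69%, 5.93% and 5.38% without and 25.5%, 25.3% and 24.9% with LPS+ATP. The 4 groups did not overlap. The share of Itgam was 92.0% ± 0.342 and 82.9% ± 0.303 in wild-type and 87.7% ± 0.479 and 71.9% ± 0.269 in Nlrp3-/- BMDMs (SD, n = 3), and that of Itgax was 4.07% ± 0.220 and 2.10% ± 0.201 in wild-type and 5.06% ± 0.383 and 2.34% ± 0.0716 in Nlrp3-/- BMDMs. Each of these comparisons gave p = 0.1 in a two-sided exact permutation test, the smallest that 3 libraries against 3 allow. With the Itgam row ENSMUSG00000030786 alone in the sum, the share of Itgal was 9.15%, 28.2%, 13.6% and 38.9% in the 4 groups, in the order wild-type control, wild-type stimulated, Nlrp3-/- control and Nlrp3-/- stimulated. Itgb2 exceeded the sum of its partners by a ratio of 2.13 ± 0.0155 and 1.97 ± 0.0339 in wild-type and 2.22 ± 0.0300 and 1.92 ± 0.0103 in Nlrp3-/- BMDMs (SD, n = 3, control and stimulated), and its stimulated libraries overlapped between genotypes (exact permutation p = 0.2).

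Among 12 α chains that pair with Itgb1, the share of Itga5 was 39.3%, 42.7% and 41.0% in wild-type control and 84.1%, 83.8% and 83.3% in wild-type stimulated libraries. In Nlrp3-/- BMDMs it was 44.9%, 42.7% and 43.5% without and 78.6%, 78.0% and 78.6% with LPS+ATP. Itga6, a laminin receptor chain, took the opposite course, from 28.8% ± 0.208 to 2.55% ± 0.275 in wild-type and from 16.0% ± 0.280 to 1.63% ± 0.120 in Nlrp3-/- BMDMs (SD, n = 3). The share of Itga4 was 17.5% ± 1.74 in wild-type control BMDMs and between 6.53% and 8.72% on average in the other 3 groups. Itga11, a collagen receptor chain of fibroblasts, held 4.39% ± 0.156 in wild-type and 18.3% ± 0.220 in Nlrp3-/- control BMDMs, and 1.94% ± 0.167 and 5.17% ± 0.0307 with LPS+ATP. Between genotypes it was higher in Nlrp3-/-, as were the fibroblast markers given above. With LPS+ATP its share fell in both genotypes. Its level did not fall in wild-type (3.30 and 3.65 FPKM) but did in Nlrp3-/- BMDMs (18.4 and 9.64 FPKM). By level, 7 of the 8 fibroblast markers were higher with LPS+ATP and 1 lower in wild-type, and 4 were higher and 3 lower in Nlrp3-/- BMDMs. The shares of Itga5, Itga6, Itga4 and Itga11 did not overlap in any of the 4 comparisons (two-sided exact permutation p = 0.1, the smallest possible). The ratio of Itgb1 to the sum of its partners was 2.41 ± 0.111 and 1.60 ± 0.0200 in wild-type and 2.16 ± 0.0928 and 1.69 ± 0.0542 in Nlrp3-/- BMDMs (SD, n = 3, control and stimulated).

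**Figure D5:**
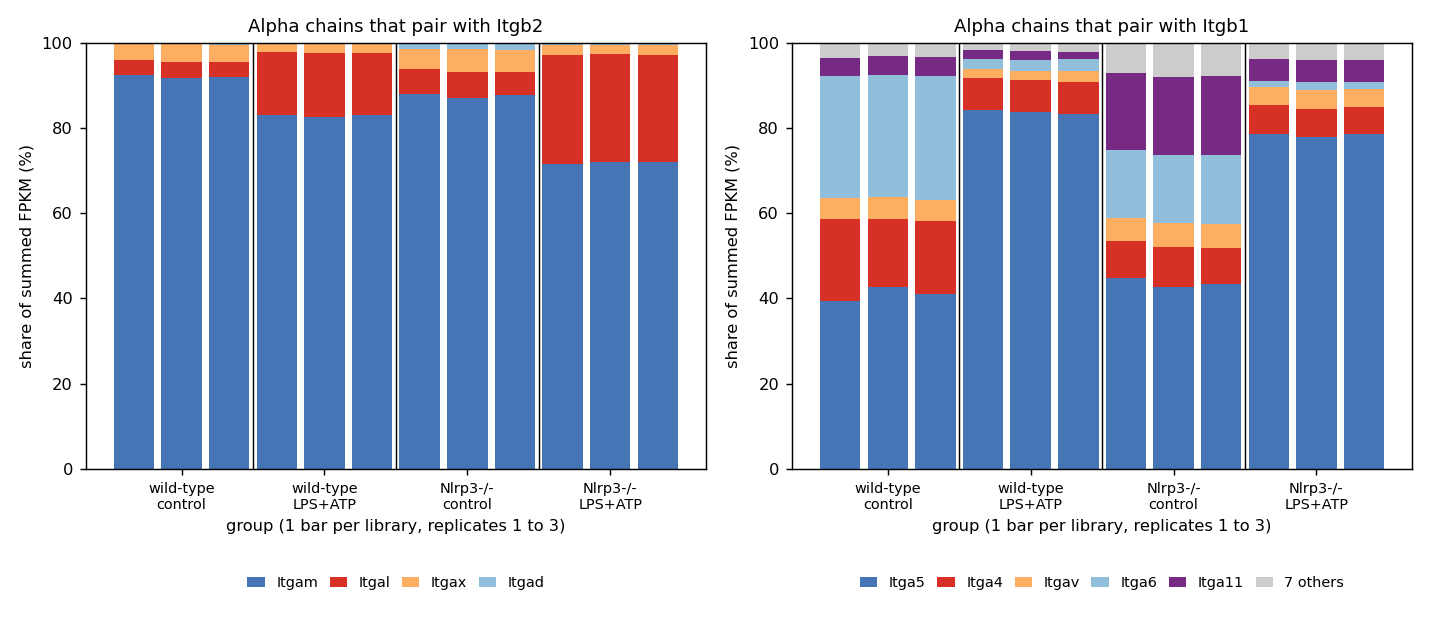
Share (%) of each α chain in the summed FPKM of the chains that pair with Itgb2 (left) and with Itgb1 (right), 1 bar per library. With LPS+ATP, Itgal grows from 3.60% to 14.8% on average in wild-type and from 5.67% to 25.2% in Nlrp3-/- BMDMs on the left, and Itga5 from 41.0% to 83.7% and from 43.7% to 78.4% on the right.

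Set against their receptors, the ligands behaved differently. The ratio of Icam1 to Itgb2 was 0.0468 ± 0.000550 in wild-type control and 0.430 ± 0.0126 in wild-type stimulated BMDMs, and 0.0521 ± 0.000985 and 0.459 ± 0.00553 in Nlrp3-/- BMDMs (SD, n = 3). The ratio of Vcam1 to Itga4 was 0.904 ± 0.0903 and 1.21 ± 0.0707 in wild-type and 4.61 ± 0.0795 and 3.52 ± 0.119 in Nlrp3-/- BMDMs. Hence the latter was higher with LPS+ATP in wild-type and lower in Nlrp3-/- BMDMs. The libraries did not overlap in any of these comparisons (two-sided exact permutation p = 0.1, the smallest possible).

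The genes most like each member were taken from 6542 tested rows with a mean of at least 5 FPKM, by Pearson's r of the log2 values over the 12 libraries, which share the 4 group differences. For Icam1 they were Gbp2 and Cfb (r = 1.00 and 0.999), for Itga5 Socs3 and Cxcl2 (r = 0.999 for both), and for Itgal H2-Q6 and Lif (r = 1.00 and 0.999). For Vcam1 they were Aldh1a2 and Bmp1 (r = 0.998 and 0.997), which had means of 34.7 and 30.9 FPKM in Nlrp3-/- control beside 5.94 and 6.86 FPKM in wild-type control BMDMs. For Itgav they were Emilin1 and Ltbp2 (r = 0.989 and 0.988), and for Itgb1 Cd164 and AI504432 (r = 0.995 and 0.993). For Itgax they were Glul and Myl6 (r = 0.990 and 0.989), for Itgb2 Flot2 and Parvb (r = 0.989 and 0.987), for the summed Itgam Esyt1 and Adam15 (r = 0.989 and 0.976), and for Itga4 Ifi207 and Dnajc10 (r = 0.964 and 0.953).

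The other genes of the pathway were described by 4 lists. Every DEG of the lists named here kept its direction and its adjusted p under 0.05 with median-ratio scaling and with TPM. The log2 limit of 1 was not always kept under median-ratio scaling. With LPS+ATP, Itgb7 (-0.73 in wild-type, -0.89 in Nlrp3-/-) and, in Nlrp3-/- BMDMs, Itgb5 (-0.83), Selplg (-0.73) and Parvg (-0.95) fell short of it. Between genotypes, Itgad (0.985), Itga9 (0.883) and Pecam1 (0.999) did so in control BMDMs, and Itgb5 (0.875) with LPS+ATP. With TPM Selplg did so (-0.97 in Nlrp3-/-). Of the other integrin subunits, 12 of 18 passed the filter. With LPS+ATP, 23.3% of all rows rose and 53.1% fell in wild-type, and 20.6% rose and 53.8% fell in Nlrp3-/- BMDMs. Of the 12 subunits, 5 rose and 6 fell in wild-type and 2 rose and 9 fell in Nlrp3-/- BMDMs. Their median log2 fold changes were -0.06 and -0.88. Under median-ratio scaling the wild-type split turned to 6 up and 5 down. The laminin receptor chain Itga6 fell most, from 21.7 to 4.799 FPKM in wild-type (log2 fold change -1.97, limma adjusted p = 1.42e-10) and from 16.1 to 3.04 FPKM in Nlrp3-/- BMDMs (-2.08, limma adjusted p = 1.20e-10). Itgb5, a partner of αv, fell from 71.6 to 18.6 FPKM in wild-type (-1.89, limma adjusted p = 5.87e-12) and from 87.4 to 39.7 FPKM in Nlrp3-/- BMDMs (-1.12, limma adjusted p = 7.53e-10). Itgb8, another αv partner, rose from 0.0321 to 1.69 FPKM in wild-type and from 0.233 to 1.77 FPKM in Nlrp3-/- BMDMs (1.38 and 1.17, limma adjusted p = 1.25e-09 and 7.57e-09), and Itgb7, which pairs with α4, fell from 20.98 to 9.74 FPKM in wild-type and from 28.8 to 12.3 FPKM in Nlrp3-/- BMDMs (-1.04 and -1.17, limma adjusted p = 2.42e-07 and 1.07e-07).

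Between genotypes, 33.3% of all rows were higher and 14.5% lower in Nlrp3-/- control BMDMs, and 35.9% and 12.6% with LPS+ATP. DEGs higher in Nlrp3-/- were 6.02% and 4.48% of all rows. Of these 12 subunits, 10 were higher and 1 lower in control BMDMs, and 7 were higher and 3 lower with LPS+ATP. Their median log2 differences were 0.47 and 0.28. The DEGs in control BMDMs were Itga11 (2.17), Itga2b (1.38), Itgad (1.12) and Itga9 (1.01), and with LPS+ATP Itga11 (1.196) and Itgb5 (1.06), all with limma adjusted p of 5.49e-07 or less. Itga2b, the platelet integrin chain, was the only interaction DEG of the list (-2.11, limma adjusted p = 1.38e-07). It was 2.92 and 8.12 FPKM in wild-type control and stimulated BMDMs, and 9.23 and 4.51 FPKM in Nlrp3-/- BMDMs. The platelet genes Ppbp (31.3, 80.4, 108 and 33.1 FPKM in the same order), Gp9 (2.31, 4.05, 5.20 and 2.15 FPKM) and Gp1bb (1.05, 2.36, 3.01 and 1.02 FPKM) went up and down with it, and their part in this result was not tested.

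Of the other adhesion molecules of the cell surface, 15 of 21 passed the filter. With LPS+ATP, 8 rose and 6 fell in wild-type and 2 rose and 9 fell in Nlrp3-/- BMDMs (median log2 fold changes of 0.17 and -0.51). Of all rows, 23.3% rose and 53.1% fell in wild-type, and 20.6% rose and 53.8% fell in Nlrp3-/- BMDMs. The tetraspanin Cd9, an integrin associate, fell from 238 to 70.9 FPKM in wild-type (-1.73, limma adjusted p = 3.91e-13) and from 219 to 68.1 FPKM in Nlrp3-/- BMDMs (-1.67, limma adjusted p = 6.97e-13). Vsir, an immune checkpoint receptor, fell from 43.8 to 3.96 FPKM in wild-type and from 31.6 to 4.26 FPKM in Nlrp3-/- BMDMs (-3.17 and -2.62, limma adjusted p = 1.25e-08 and 8.98e-08). Icam2, a further LFA-1 ligand, fell from 2.83 to 0.615 FPKM in wild-type (-1.23, limma adjusted p = 2.34e-05) and from 2.34 to 0.925 FPKM in Nlrp3-/- BMDMs (-0.78, adjusted p = 0.000929), opposite to Icam1. Selplg, the P-selectin ligand, fell from 58.3 to 30.7 FPKM in wild-type (-0.90, limma adjusted p = 2.80e-06) and from 43.7 to 21.3 FPKM in Nlrp3-/- BMDMs (-1.01, adjusted p = 1.23e-06). Between genotypes, 8 were higher and 4 lower in Nlrp3-/- control BMDMs and 6 higher and 4 lower with LPS+ATP, with Jam3 (1.38 and 1.243), F11r (1.17 in control) and Pecam1 (1.14 in control) as DEGs, all higher (limma adjusted p of 3.47e-07 or less). The split with LPS+ATP was 5 higher and 6 lower under median-ratio scaling. Of all rows on the unscaled FPKM, 33.3% were higher and 14.5% lower in Nlrp3-/- control BMDMs, and 35.9% and 12.6% with LPS+ATP. DEGs higher in Nlrp3-/- were 6.02% and 4.48% of all rows. The selectin Selp was an interaction DEG (-1.13, limma adjusted p = 1.69e-06), with means of 0.429, 1.47, 1.17 and 0.707 FPKM in the order wild-type control, wild-type stimulated, Nlrp3-/- control and Nlrp3-/- stimulated.

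The matrix ligands of integrins differed most between genotypes. Of 23 genes, 18 passed the filter, and 14 were higher and 3 lower in Nlrp3-/- control BMDMs and 15 higher and 3 lower with LPS+ATP, with median log2 differences of 1.36 and 1.11 beside 0.09 and 0.11 over all rows. Of all rows, 33.3% were higher and 14.5% lower in Nlrp3-/- control BMDMs, and 35.9% and 12.6% with LPS+ATP. In each state 10 of the 18 ligands were DEGs, all higher in Nlrp3-/-. Such DEGs were 6.02% of all rows in control BMDMs and 4.48% with LPS+ATP. Under median-ratio scaling 9 of the ligands were DEGs with LPS+ATP. Fn1, the fibronectin that Itga5 and Itga4 bind, had a level of 31.7 FPKM in wild-type control and of 213 FPKM in Nlrp3-/- control BMDMs (2.71, limma adjusted p = 7.06e-13), and 30.3 and 133 FPKM with LPS+ATP (2.10, limma adjusted p = 7.90e-12). Postn, periostin, was 1.58 and 18.9 FPKM in control BMDMs (2.95, limma adjusted p = 6.43e-13) and 1.98 and 13.2 FPKM with LPS+ATP (2.26, limma adjusted p = 7.90e-12). Cyr61, a matricellular ligand of αv integrins, and Tnc, tenascin C, were higher in Nlrp3-/- control BMDMs by 2.35 and 2.32 on the log2 scale, and they rose with LPS+ATP in both genotypes (Cyr61 by 1.54 and 1.32, Tnc by 2.35 and 1.64, all limma adjusted p of 8.36e-09 or less). Fibroblasts make these proteins in quantity, and the fibroblast markers were higher in the same libraries. Their part in these differences was not tested.

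The last list held integrin activators and adhesion complex genes. Of 44 genes, 41 passed the filter, of which 12 rose and 19 fell in wild-type and 12 rose and 20 fell in Nlrp3-/- BMDMs (median log2 fold changes of -0.11 and -0.14), where 23.3% of all rows rose and 53.1% fell in wild-type and 20.6% and 53.8% in Nlrp3-/- BMDMs. Both splits turned under median-ratio scaling, to 20 up and 13 down and to 18 up and 16 down. Rassf5, the RAPL protein that activates LFA-1, fell from 14.3 to 2.94 FPKM in wild-type (-1.96, limma adjusted p = 6.99e-12) and from 12.1 to 4.04 FPKM in Nlrp3-/- BMDMs (-1.38, limma adjusted p = 1.92e-10). Vav3 fell to 2.27 and 1.53 FPKM (-1.98 and -2.11, limma adjusted p = 9.00e-11 and 7.30e-11), and Src rose from 3.61 to 13.3 FPKM in wild-type (1.63, limma adjusted p = 9.90e-06) and from 9.74 to 20.2 FPKM in Nlrp3-/- BMDMs (0.96, adjusted p = 0.000738). Parvg, a leukocyte parvin, fell from 23.8 to 7.97 FPKM in wild-type (-1.47, limma adjusted p = 1.69e-09) and from 24.2 to 9.72 FPKM in Nlrp3-/- BMDMs (-1.23, adjusted p = 1.11e-08). Between genotypes, 33.3% of all rows were higher and 14.5% lower in Nlrp3-/- control BMDMs, and 35.9% and 12.6% with LPS+ATP. DEGs higher in Nlrp3-/- were 6.02% and 4.48% of all rows. Of this list, 12 were higher and 15 lower in control BMDMs and 14 higher and 13 lower with LPS+ATP. Under median-ratio scaling the splits were 12 and 20 and 10 and 21. The DEGs were all higher in Nlrp3-/-, 6 in control BMDMs with Fermt2 (kindlin-2, 2.21) and Parva (1.57) first and Bcar1 (1.43) and Src (1.236) next, and 3 with LPS+ATP, which were Parva (1.55), Fermt2 (1.52) and Tln2 (1.23), all with limma adjusted p of 0.000222 or less.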

How the data were processed

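RNA of wild-type and Nlrp3-/- BMDMs was extracted with Trizol and made into libraries with an Illumina TruSeq kit. The authors deposited 1 table of FPKM values per gene and library, with 0 columns left unused. The aligner and the counting of reads are not given in the sources used here. The submitters' processing notes name GRCm39 and DESeq2 1.24.0 without saying what they were used for. FPKM values do not keep the number of reads. The depth is therefore unknown, and no count test was made. Library sums ran from 283278 to 299393 FPKM.

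Rows that reached 1 FPKM in 3 or more of 12 libraries entered limma (version 3.58.1, in R 4.3.3) as log2(FPKM + 1), with a mean for each group, a variance trend and Benjamini-Hochberg adjustment over 12622 rows. A fold change on this scale understates that of low genes. Itgam was also fitted as the sum of its 2 rows, an addition made after the values were seen. Shares and ratios were tested by two-sided exact permutation. Positions and overlaps came from GENCODE M21 (GRCm38.p6), which holds 55154 of the 55335 identifiers, near copies from blastn 2.17.0+ (95% identity over at least 20% of the transcript), and promoters from RefSeq. Exact tests were run in scipy 1.17.1 and plots drawn in matplotlib 3.10.9, under Python 3.11.15 with pandas 2.3.3 and numpy 2.4.6. The fit was tested on simulated data.

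The members and lists were chosen with earlier results of these data known. All members were named, along with up to 4 DEGs of each further list and comparison by absolute log2 fold change and the 2 genes most like each member. Some genes that this rule names are not reported here. Alternatives were median-ratio scaling, TPM, a minimum of 5 FPKM in place of 1 or none at all, a pseudocount of 0.1, a replicate block, no variance trend, the compared groups alone, and leaving out each library in turn.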

Additional observations from a re-analysis of the deposited data

Results flagged for a closer look

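The change with LPS+ATP differed between the genotypes by the interaction test (limma adjusted p under 0.05) for 8 members. The differences, Nlrp3-/- minus wild-type on the log2 scale, were -0.60 for Itga5, -0.40 for Vcam1, 0.34 for Itga4, 0.27 for Itgav, -0.19 for Itgb1, -0.16 for Icam1, -0.15 for the summed Itgam and -0.11 for Itgb2. Of these, Itga5 rose from a higher level in Nlrp3-/- control BMDMs (43.9 FPKM, beside 30.8 FPKM in wild-type) to a slightly lower one with LPS+ATP (146 and 158 FPKM). Vcam1 rose in wild-type BMDMs from 11.8 to 17.0 FPKM and was 40.3 and 42.8 FPKM in Nlrp3-/- BMDMs. Itga4 was 13.2 and 14.1 FPKM in wild-type and 8.75 and 12.2 FPKM in Nlrp3-/- BMDMs.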

How the results depend on the processing

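With a pseudocount of 0.1, DEGs over all genes numbered 3702 and 2847 (stimulation in wild-type and Nlrp3-/- BMDMs), 1428 and 1406 (genotype in control and with LPS+ATP) and 634 (interaction), beside 2452, 1874, 847, 637 and 271. With TPM they were 2933 (stimulation in Nlrp3-/-), 1597, 1327 and 605 (genotype and interaction). With a filter of FPKM at least 5, 6262 and 6062 genes changed with stimulation, beside 9641 and 9383, and 515 were DEGs between genotypes in control BMDMs, since fewer genes were tested. The interaction passed for 7 of the 11 member rows, for 4 with no filter, with TPM or with no variance trend, and for 4 to 7 when 1 library was left out. Of 900 alternative values of the members, 824 kept their side of the threshold without a counted reversal. A reversal was counted only where the main or the alternative value passed. Where neither passed, directions could turn uncounted. The genotype difference of Itgax with LPS+ATP, for example, ran from -0.0218 to 0.0816 with 1 library left out. The 6 counted reversals came under median-ratio scaling: Icam1 (genotype in control, -0.033), Itgb1 (genotype with LPS+ATP, -0.13), Itgb2 (stimulation, 0.227 in wild-type and 0.083 in Nlrp3-/-) and the summed Itgam (stimulation, 0.19 and 0.0014). The falls of Itgb2 and Itgam with LPS+ATP and the directions of these small differences thus rest on the scale of the libraries. Without read counts, counting error could not be given.

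No pairing by replicate number was visible. The deviations of same-numbered libraries had r between -0.0565 and 0.0528, beside -0.0687 and 0.0991 for other numbers. Whether same-numbered libraries share a donor or a batch cannot be told from these values. With the replicate block, 8, 8, 8, 6 and 7 member rows passed in the 5 comparisons, as without it.

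With the Itgam row ENSMUSG00000030786 alone, shares of the β2 partners in wild-type control, wild-type stimulated, Nlrp3-/- control and Nlrp3-/- stimulated BMDMs moved to 9.15%, 28.2%, 13.6% and 38.9% for Itgal, 79.5%, 67.4%, 70.3% and 56.6% for Itgam, 10.4%, 4.04%, 12.1% and 3.59% for Itgax, and 0.962%, 0.435%, 3.98% and 0.852% for Itgad, and the ratio of Itgb2 to their sum to 5.46, 3.74, 5.37 and 2.97. With β1 partners of at least 1 FPKM in at least 3 libraries, the values that moved by over 1 SD were Itga4 (7.49%, wild-type stimulated), Itga5 (79.2%, Nlrp3-/- stimulated), Itgav (5.73%, Nlrp3-/- control), Itga6 (29.0% and 16.4%, both controls) and Itga11 (18.7% and 5.22%, Nlrp3-/-).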
